A study of Mus musculus with 36 samples.

Results

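The comparison described here set HP1γ-deficient CD4 T cells that had taken part in an immune response against HP1γ-deficient naive CD4 T cells. It asked which chromatin opened and which closed on activation in the absence of HP1γ. The members were all libraries whose labels gave the genotype HP1g KO and the cell Tconv transferred without regulatory T cells (Treg) or naive, which were 3 Tconv and 3 naive libraries of 36 in the series. ATAC-seq counted reads in consensus peaks, and 71508 of 71509 peaks passed the filter on low counts and were compared. KO mice were homozygous for a floxed Hp1g (Cbx3) allele and carried a Cd4-cre transgene, which deletes in cells of the T lineage, and wild-type (WT) mice were littermates homozygous for the same floxed allele without Cre. Both KO groups therefore shared the deletion and the transgene, and both genotypes shared the floxed allele and a mixed 129/Sv and C57BL/6 background. The mice were young adults matched for sex, and the study states that males were used for its sequencing analyses.

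Naive cells were CD4+ CD44-/low cells purified from spleen by negative selection. Tconv were naive cells of the same genotype that had been injected, with a mixture of C57BL/6 and semi-allogeneic B6D2F1 bone marrow, into lethally irradiated C57BL/6 hosts and then sorted from the spleen weeks later as TCR Vβ6+ CD4 T cells, a Vβ that recognizes the donor. The transfer, the irradiated host and the Vβ6 sort went with Tconv in every library, as would any batch that divided naive from Tconv libraries. Their parts in a difference between Tconv and naive cells cannot be told apart from activation. Nothing in the labels said that replicates came from separate animals, so p-values measure the spread between these libraries, which may be technical. All libraries held a mixed population of cells, in which fewer cells of a kind and less open chromatin per cell cannot be told apart.

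HP1γ is a chromodomain protein that binds histone H3 methylated at lysine 9, the mark of silent chromatin, and it is best known as an adaptor for gene silencing. A naive CD4 T cell is kept quiescent and ready to recirculate through lymph nodes by factors such as TCF1, LEF1, FOXP1, BACH2 and SATB1. After stimulation through its receptor, AP-1, NFAT and IRF factors open enhancers, and lineage factors such as T-bet, the product of Tbx21, fix a helper program. ATAC-seq reads such changes from the sites at which the Tn5 transposase can insert into DNA.

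Stretches of 200 bases from the centres of 9 peaks are printed 5′ to 3′ on the + strand of GRCm39 as examples of DNA that opened or closed. Hopx and Il10 were the peaks with the smallest p among those that opened, and Bcl9 the one among those that closed. The others were chosen after their values were seen, as peaks with the smallest p outside start sites that held an AP-1 motif and opened or a TCF/LEF motif and closed. The windows of Stk32c, which opened, and of Cxcr4, Cnn3 and Cnksr3, which closed, are not printed. These peaks were also among those with the smallest p, and their windows held no match to any motif counted. Capitals mark matches on either strand to AP-1 (TGANTCA), T-box (AGGTGTG), KLF (GGGTGTG) and RUNX (TGTGGTT) in the peaks that opened, and to RUNX, TCF/LEF (CTTTGAT), ETS (CCGGAAG) and FOX (TGTTTAC) in those that closed. Of all 200-base windows, 9.5% held AP-1, 4.06% TCF/LEF, 5.6% T-box, 9.63% RUNX, 6.2% KLF, 3.08% ETS and 2.87% FOX. Among windows of peaks that opened the share with AP-1 was 17%, and among those of peaks that closed the share with TCF/LEF was 7.45%. A match describes the letters and shows no binding. The first 5 sequences opened in KO Tconv.
Hopx, chr5:77278246-77278445: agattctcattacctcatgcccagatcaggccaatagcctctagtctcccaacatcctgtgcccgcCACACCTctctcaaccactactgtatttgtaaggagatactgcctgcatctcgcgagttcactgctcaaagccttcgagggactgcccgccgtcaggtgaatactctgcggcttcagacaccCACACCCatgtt
Il10, chr1:130921451-130921650: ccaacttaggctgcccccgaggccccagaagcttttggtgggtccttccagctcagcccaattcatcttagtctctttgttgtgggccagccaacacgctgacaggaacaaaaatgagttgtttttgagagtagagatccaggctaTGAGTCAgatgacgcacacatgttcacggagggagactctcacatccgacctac
N4bp1, chr8:87582941-87583140: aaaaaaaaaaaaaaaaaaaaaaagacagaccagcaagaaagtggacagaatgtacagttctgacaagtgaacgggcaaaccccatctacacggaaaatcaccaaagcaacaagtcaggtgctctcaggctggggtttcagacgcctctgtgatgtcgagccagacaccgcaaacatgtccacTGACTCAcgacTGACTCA
Bach2, chr4:32126846-32127045: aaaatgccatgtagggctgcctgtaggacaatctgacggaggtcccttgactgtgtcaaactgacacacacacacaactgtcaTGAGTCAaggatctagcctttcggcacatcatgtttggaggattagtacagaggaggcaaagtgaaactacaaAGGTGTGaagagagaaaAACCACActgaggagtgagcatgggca
Itpr1, chr6:108255038-108255237: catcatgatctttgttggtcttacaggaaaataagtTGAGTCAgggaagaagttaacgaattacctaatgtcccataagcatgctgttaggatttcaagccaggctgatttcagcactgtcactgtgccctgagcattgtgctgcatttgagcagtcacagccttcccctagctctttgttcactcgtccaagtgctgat
The next 4 sequences closed in KO Tconv.
Bcl9, chr3:97201856-97202055: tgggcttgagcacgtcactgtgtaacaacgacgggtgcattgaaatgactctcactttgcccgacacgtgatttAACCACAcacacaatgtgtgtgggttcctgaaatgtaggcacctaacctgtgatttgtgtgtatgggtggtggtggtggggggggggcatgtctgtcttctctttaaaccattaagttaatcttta
Usp12, chr5:146720806-146721005: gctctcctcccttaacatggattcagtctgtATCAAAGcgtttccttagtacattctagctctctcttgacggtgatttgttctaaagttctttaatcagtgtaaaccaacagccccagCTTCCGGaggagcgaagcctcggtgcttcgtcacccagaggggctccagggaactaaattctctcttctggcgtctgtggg
Thbs1, chr2:117838581-117838780: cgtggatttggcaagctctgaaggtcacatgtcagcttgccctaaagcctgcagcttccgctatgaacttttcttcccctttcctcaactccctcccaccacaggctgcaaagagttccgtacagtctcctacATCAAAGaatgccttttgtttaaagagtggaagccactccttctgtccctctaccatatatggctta
Scml4, chr10:42724746-42724945: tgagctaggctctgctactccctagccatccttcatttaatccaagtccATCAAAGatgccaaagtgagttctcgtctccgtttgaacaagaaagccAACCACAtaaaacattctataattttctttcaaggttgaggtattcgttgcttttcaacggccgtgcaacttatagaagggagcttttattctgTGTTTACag

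Levels are given as CPM, reads per 1 M reads in peaks after TMM scaling, which is not corrected for the width of a peak, so that levels are compared between libraries of 1 peak only. Naive KO libraries 1 and 2 stood apart from the other naive libraries at sites that open on activation, and the main counts that rest on them are given again without them, together, beside the comparison with WT. Each peak is named by the nearest start of a protein-coding or receptor gene (TSS), which for single peaks can be over 100 kb away, while gene groups count peaks within 100 kb only. The peak shown for Hopx, a homeodomain cofactor of effector and memory Th1 cells, lay at chr5:77277521-77279170, 14.5 kb from that start and over the start of a non-coding gene model. Its levels were 2.79, 2.52 and 2.97 CPM in the naive KO libraries and 62.4, 71.6 and 70.8 CPM in the KO Tconv libraries. The groups were far apart, and the log2 fold change was 4.62 ± 0.13 (SE, n = 3 against 3, edgeR quasi-likelihood F test, adjusted p = 3.37e-13).

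An intergenic peak 25 kb from the start of Il10, the gene of an immunosuppressive cytokine, rose from 5.60, 5.98 and 5.58 CPM to 80.6, 76.6 and 85.9 CPM (log2 fold change 3.83 ± 0.12, edgeR adjusted p = 1.08e-12). An intronic peak in the kinase gene Stk32c went from 3.05, 2.80 and 2.82 CPM to 95.5, 97.7 and 125 CPM, a log2 fold change of 5.20 ± 0.18. A peak near Agfg1 was also among the 5 that opened with the smallest p, with a log2 fold change of 4.49. The peaks shown above for N4bp1, Bach2 and Itpr1 had log2 fold changes of 4.43, 4.03 and 4.29. The Bach2 peak lay 111 kb from the start of a gene whose own peaks mostly fell.

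Among the peaks that closed, the smallest p belonged to an intronic peak of Bcl9, whose product is a coactivator of β-catenin, at chr3:97201281-97202630. It held 37.2, 38.6 and 41.8 CPM in naive KO cells and 1.72, 2.2 and 1.68 CPM in KO Tconv (log2 fold change -4.40 ± 0.18, edgeR adjusted p = 2.09e-11). A peak 8.35 kb from Cxcr4, a chemokine receptor of homing, fell from 57.0, 61.9 and 61.5 CPM to 7.55, 8.95 and 7.66 CPM, a log2 fold change of -2.90 ± 0.12. The Cxcr4 peak over the gene's own start stood at -0.09 (edgeR adjusted p = 0.327). At the start of the scaffold gene Cnksr3, levels fell from 82.7, 92.9 and 95.6 CPM to 7, 6.92 and 6.73 CPM. The start of Cnn3, the gene of an actin-binding calponin, and an intronic peak of Ripor2, whose product limits RhoA, had log2 fold changes of -2.45 and -2.93. The peaks shown by the names of Usp12, Thbs1 and Scml4 lay 10.1, 103 and 10.9 kb from those starts, the last 2 outside the gene, and had log2 fold changes of -3.47, -3.95 and -2.80. Groups that do not overlap were a condition of choosing all these peaks.

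**Figure D1:**
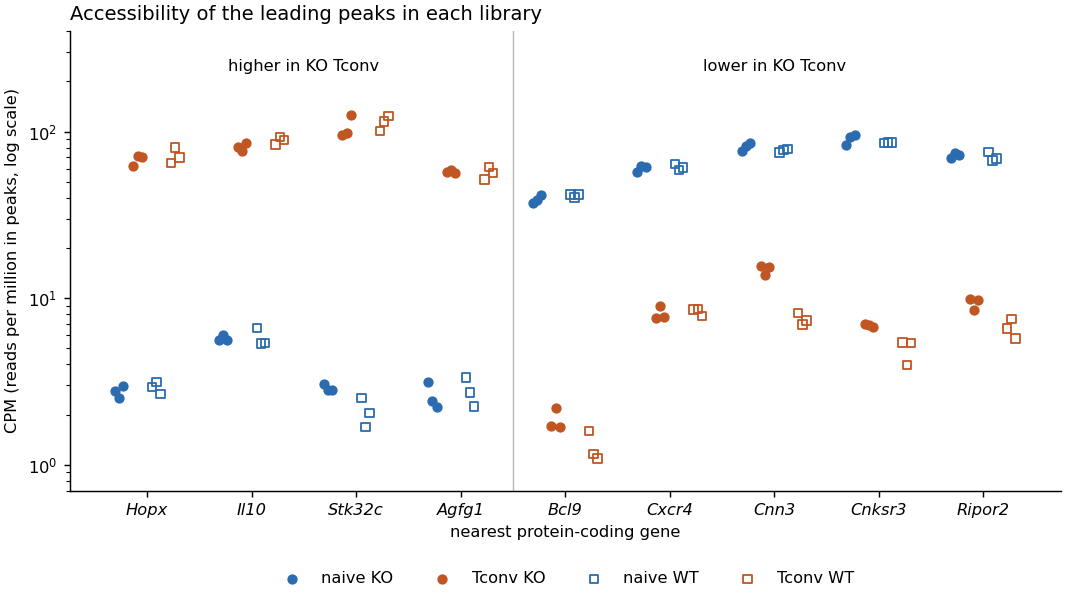
Level of 4 of the 5 peaks that opened and of the 5 that closed with the smallest p, 1 point per library, in CPM on a log axis, for naive and Tconv libraries of both genotypes. In each of the 9 peaks the 3 KO Tconv libraries lie apart from the 3 naive KO libraries, as the choice of peaks required, and the WT libraries differ in the same direction.

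Over all peaks, 30265 of 71508 (42.3%) were called, which here means that the adjusted p was below 0.05 and the log2 fold change above 1 or below -1. Of these, 16004 (22.4% of those tested) were higher and 14261 (19.9%) lower in KO Tconv. The median log2 fold change was 2.14 among the former, -1.82 among the latter and 0.06 over all peaks. KO Tconv and naive KO libraries did not overlap in 46568 peaks (65.1%), a share that included 95.6% of the higher and 99% of the lower calls. Of the peaks that opened, 7494 (46.8%) had a mean under 0.5 CPM in naive KO cells, and 3497 (24.5%) of those that closed ended under that level. The median level of opened peaks went from 0.547 to 2.62 CPM and that of closed peaks from 4.14 to 1.04 CPM, where the median over all peaks was 2.60 and 2.63 CPM.

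Most opened and closed peaks lay away from start sites. Peaks over a coding start were called higher in 7.47% and lower in 6.67% of cases, against 28.6% and 32.5% of peaks over 100 kb from one. Of intronic peaks, 27% opened and 24.5% closed. Peaks of 5 kb or more opened in 11.3% and closed in 2.58% of cases. In the fifth of peaks with the lowest GC content 27.8% opened and 22.6% closed, and in the fifth with the highest 14.8% and 12.4%. The X chromosome had 15.7% higher and 23.1% lower peaks, while chromosome 19 had 24% and 15.5%.

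Called peaks came in runs of 1 direction. Of 10599 pairs of neighbouring called peaks less than 10 kb apart, 9520 (89.8%) had the same direction. The share was 81.8% at 10 to 50 kb and 73.1% at 50 kb or more. Of all called peaks 52.9% were higher, and no share was computed for pairs drawn without regard to position. The genes with the most opened peaks, named after their values were seen, were Rbpj, the nuclear effector of Notch signalling, with 36 of 42 peaks, Trerf1 with 33 of 35, the calcium channel gene Itpr1 with 30 of 44, Prex1 with 27 of 49, Gas7 with 24 of 27, Atxn1 with 24 of 28 and Arhgap26 with 24 of 37. Those with the most closed peaks were Foxp1 with 83 of 94, Bach2 with 57 of 76, Satb1 with 46 of 48, Tgfbr3 with 37 of 47, Pip4k2a with 28 of 48 and Trio with 27 of 35.

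Motif letters were counted on both strands in the central 300 bases of each peak. AP-1 was held by 22.3% of opened, 9.58% of closed and 10.6% of uncalled windows, where all windows gave 13%. TCF/LEF was held by 9.96% of closed, 5.04% of opened and 4.59% of uncalled windows, where all windows gave 5.76%. RUNX was found in 17.7% of opened and 14% of closed windows against 10.7% of uncalled ones, and T-box in 10.6%, 8.19% and 7.32%. The CTCF core went the other way, with 1.33% of opened, 1.30% of closed and 6.24% of uncalled windows, as did SP (GGGCGGG), a motif of GC-rich promoters, with 5.35%, 5.39% and 13.6%. NFAT (TGGAAAA) was held by 8.06% of opened, 6.09% of closed and 6.48% of uncalled windows, and IRF (GAAANNGAA) by 12.2%, 11.9% and 9.67%. These shares mix kinds of peak, since 42.7% of uncalled peaks lay at start sites against 22.2% of opened and 22.3% of closed ones. Outside start sites, RUNX was held by 18.9% of opened, 15% of closed and 13.8% of uncalled windows. T-box was then held by 10.9%, 8.62% and 8.48%, SP by 3.35%, 3.67% and 4.33%, and AP-1 by 23.4%, 10.2% and 13.3%.

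The shares also differed by the number of matches. Outside start sites, peaks with no AP-1 match opened in 23.9%, those with 1 match in 38.9% and those with 2 or more in 53% of cases, and closed in 24.9%, 16.7% and 7.32%. Peaks with no TCF/LEF match closed in 22.5%, those with 1 in 36.8% and those with 2 or more, of which there were 143, in 50.3% of cases. The N4bp1 peak printed above holds 2 AP-1 matches at the edge of its window. These shares describe letters in windows and carry no test.

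For the gene groups, 64997 peaks were assigned to the nearest TSS within 100 kb, of which 21.8% were higher and 18.7% lower, with a median log2 fold change of 0.06. These peaks belonged to 15167 genes, of which 5994 had an opened peak, 4777 a closed peak and 1982 both. The groups were lists of genes with a known role in T cells and are described by their counts and medians beside these shares, with no test of a list as a whole.

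Regulators that keep naive cells quiescent closed. Of 450 peaks of 14 genes, 270 (60%) fell and 19 (4.22%) rose, with a median log2 fold change of -1.41. In addition to the loci of Foxp1, Bach2 and Satb1, levels fell at 21 of 31 peaks of Lef1, whose product binds the TCF/LEF motif, 21 of 36 of Btg1, an antiproliferative factor, 15 of 34 of Foxo1 and 9 of 22 of Tcf7. At the Bach2 start the levels were 195, 196 and 217 CPM in naive KO cells and 96.0, 89.2 and 104 CPM in KO Tconv (log2 fold change -1.07 ± 0.09, edgeR adjusted p = 3.13e-08). An intronic Bach2 peak fell further, from 84.4, 84.7 and 96.8 CPM to 10.6, 9.09 and 7.54 CPM. The strongest Foxp1 peak by p, also intronic, went from 82.2, 89.5 and 90.0 CPM to 11.6, 7.26 and 7.47 CPM, a log2 fold change of -3.31 ± 0.18. The Foxp1 start itself had a log2 fold change of -0.94 and missed the size threshold. Genes of the group with more peaks higher than lower were Klf2 with 2 of 11 higher and none lower, Ets1 with 7 of 36 higher and 4 lower, and Myb with 4 of 18 higher and 2 lower, while Btg2 had 1 of 8 in each direction.

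Receptors that lead naive cells to lymph nodes and sustain them moved less uniformly, with 46 of 122 peaks of 7 genes (37.7%) lower, 11 (9.02%) higher and a median of -0.62. The start of Ccr7, which guides T cells into lymph nodes, fell from 324, 335 and 361 CPM to 118, 96.3 and 99.5 CPM (log2 fold change -1.70 ± 0.10, edgeR adjusted p = 7.08e-10), with 15 of 19 Ccr7 peaks lower. A peak 50.4 kb from the start of the integrin gene Itga6 fell from 20.3, 21.9 and 23.7 CPM to 4.67, 4.57 and 3.29 CPM. Cxcr4 had 6 of 18 peaks higher and 3 lower, and the start of Dgka, a lipid kinase gene that limits signalling, stood at -0.06.

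Regulators of effector and helper lineages opened. Of 254 peaks of 16 genes, 148 (58.3%) rose and 17 (6.69%) fell, with a median of 1.64. All 9 peaks of Tbx21 rose. The intronic peak 10.1 kb from its start went from 0.929, 0.786 and 0.742 CPM to 54.6, 60.9 and 68.1 CPM, a log2 fold change of 6.24 ± 0.33, and the start itself from 13.5, 12.7 and 13.1 CPM to 92.4, 119 and 135 CPM, one of 3.14 ± 0.20 (edgeR adjusted p = 9.64e-10). The start of Bhlhe40, a factor needed for Th1 cytokine production, rose from 66.6, 78.4 and 74.3 CPM to 426, 509 and 528 CPM, and 20 of its 24 peaks were higher. Rora rose in an intron from 10.9, 8.74 and 10.1 CPM to 103, 105 and 120 CPM. Runx2 had 21 of 31 and Runx3 20 of 37 peaks higher, and Maf, an activator of Il10, had 11 of 12. Prdm1, the gene of BLIMP1, had 15 of 25 peaks higher while its start stood at a log2 fold change of -0.04. Bcl6, the factor of follicular helper cells that opposes BLIMP1, had 0 of 8 higher and 3 lower, and Eomes 3 of 14 higher and 7 lower.

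Cytokine genes opened along their loci, with 110 of 177 peaks (62.1%) higher, 12 (6.78%) lower and a median of 1.89. At the start of Ifng, the Th1 cytokine, levels rose from 3.28, 2.83 and 1.60 CPM to 48.4, 62.8 and 69.6 CPM (log2 fold change 4.6 ± 0.25, edgeR adjusted p = 1.84e-10), and 15 of 20 Ifng peaks were higher. All 15 peaks of Il10 rose, and its start went from 3.54, 2.26 and 1.26 CPM to 43.6, 70.8 and 77.3 CPM, a log2 fold change of 4.83 ± 0.35. The cytokine genes of other helper lineages opened too. All 7 peaks of Il13, all 5 of Il17a and all 4 of Il17f rose, as did 3 of 4 of Il4 and 4 of 6 of Il5. The best Il17a peak, 9.35 kb from its start, rose from 0.726, 0.723 and 0.591 CPM to 10.8, 9.75 and 11.3 CPM, a log2 fold change of 3.99 ± 0.28. The Il17a start stayed low, at 0.523, 0.440 and 0.113 CPM in naive cells and 0.971, 1.40 and 1.18 CPM in Tconv (log2 fold change 1.83 ± 0.72, edgeR adjusted p = 0.0363). That call was lost without naive KO library 2 or 3 or without KO Tconv library 2 or 3, with adjusted p from 0.0537 to 0.167.

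Il2, the growth factor of T cells, rose at its start from 7.43, 6.2 and 6.25 CPM to 37.4, 17.1 and 33.5 CPM, a log2 fold change of 2.15 ± 0.29, with KO Tconv library 2 lowest but above every naive library. A peak 76.3 kb from Tnfsf8, the ligand of CD30, rose from 4.04, 2.89 and 2.68 CPM to 54.3, 72.4 and 49.8 CPM. The start of Tnf stood at a log2 fold change of 0.45 and was not called, and Il3 had 1 of 4 lower and none higher.

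Inhibitory receptors and factors of exhaustion were mixed, with 59 of 153 peaks (38.6%) higher, 31 (20.3%) lower and a median of 0.40. The start of Havcr2, which encodes TIM3, rose from 2.03, 1.89 and 1.38 CPM to 18.3, 16.2 and 18.7 CPM, a log2 fold change of 3.35 ± 0.29. The start of Pdcd1, which encodes PD-1, rose from 28.7, 27.6 and 26 CPM to 61.5, 79.8 and 66.3 CPM (1.34 ± 0.17, edgeR adjusted p = 2.07e-06). All 3 peaks of Lag3 rose, its start from 6.19, 8.96 and 7.24 CPM to 16.0, 26.4 and 22.9 CPM. Tigit had 10 of 14 peaks higher, and its start, at 57.4, 76.7 and 66.7 CPM against 146, 127 and 136 CPM, had a log2 fold change of 1.03 that fell under 1 (0.93 and 0.98) without naive KO library 1 or KO Tconv library 1. An intronic peak of Entpd1, the gene of CD39, rose from 0.523, 0.755 and 0.201 CPM to 9.13, 7.40 and 13.7 CPM.

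Tox, a factor of exhaustion, went the other way from these receptors. It had 13 of 31 peaks lower and 2 higher, and its start fell from 117, 134 and 134 CPM to 60.4, 63.6 and 61.1 CPM (log2 fold change -1.06 ± 0.11, edgeR adjusted p = 4.54e-07). The related Tox2 had 10 of 14 peaks higher. Btla had 3 of 13 peaks lower and 2 higher, and a peak 25.2 kb from Ctla4 fell from 18.5, 23.8 and 22.3 CPM to 3.40, 3.03 and 2.14 CPM, although 7 of 20 Ctla4 peaks rose. The exhaustion signature used by the study had 383 of 911 peaks (42%) higher and 129 (14.2%) lower, with a median of 0.69, and its Th1 signature 270 of 721 (37.4%) higher and 78 (10.8%) lower, with a median of 0.51.

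Cytotoxic effectors and NK receptors had the highest share of opened peaks of the T cell groups described here, 43 of 57 (75.4%), with 4 lower (7.02%) and a median of 2.98. All 12 peaks of Klrg1, an inhibitory receptor of terminal effectors, and 10 of 11 of Gzmk rose. An intronic Gzmk peak went from 1.34, 1.23 and 0.578 CPM to 42.9, 40.2 and 53.0 CPM, a log2 fold change of 5.53 ± 0.28 (edgeR adjusted p = 1.11e-10). The start of Nkg7, a granule protein gene, rose from 4.62, 3.55 and 2.58 CPM to 67.1, 84.0 and 120 CPM. Prf1, the gene of perforin, had 3 of 7 peaks lower and 2 higher.

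Receptors and chemokines of tissue trafficking rose in 87 of 148 peaks (58.8%) and fell in 11 (7.43%), with a median of 1.61. All 7 peaks of Cxcr3, the chemokine receptor of Th1 cells, opened, its start from 3.86, 1.89 and 1.79 CPM to 56.8, 52.2 and 61.3 CPM. All 8 peaks of Ccl5 opened, and the one at its start with the most reads went from 5.05, 3.71 and 2.26 CPM to 82.5, 83.9 and 118 CPM. The start of Cd44, whose low surface level defined the naive cells, went from 18.6, 18.5 and 17.2 CPM to 39.3, 39.5 and 42.5 CPM, and 16 of 24 Cd44 peaks rose.

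The AP-1, BATF, IRF, NFAT, NR4A and EGR factors had 82 of 213 peaks (38.5%) higher and 19 (8.92%) lower, with a median of 0.51. Batf, whose product pairs with JUN and IRF4, rose in 16 of 17 peaks, Nfatc2 in 13 of 20 and Irf4 in 14 of 27, with 5 Irf4 peaks lower. Members of the FOS, NR4A and EGR families varied, with 3 higher and 0 lower of 3 peaks for Fosb, 3 higher and 1 lower of 9 for Egr2, 2 and 1 of 7 for Nr4a2, 1 and 2 of 15 for Fos, 1 and 1 of 12 for Nr4a1, and 0 and 2 of 11 for Nr4a3. Cytokine receptors had 60 of 202 (29.7%) higher and 45 (22.3%) lower, with a median of 0.14. All 7 peaks of Il2rb rose, its start from 28.3, 25.2 and 26.9 CPM to 125, 136 and 141 CPM, and 15 of 20 of Il1rl1, the receptor of IL-33, were higher. Tgfbr2 had 24 of 45 lower, the best by p going from 24, 25.1 and 26.1 CPM to 1.86, 2.92 and 1.85 CPM. Costimulatory receptors were split at 31 of 104 (29.8%) higher and 23 (22.1%) lower, a median of 0.13, with the start of Tnfrsf4 (OX40) at a log2 fold change of 2.11 and Cd28 at 11 of 23 peaks lower.

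Genes of the TCR complex and its proximal signalling had 28 of 134 peaks (20.9%) higher and 7 (5.22%) lower, with a median of 0.23. Cell cycle genes had 11 of 40 (27.5%) higher and 2 (5%) lower, with a median of 0.37, where the start of Mki67, at a log2 fold change of 0.41, was not called but an intronic peak rose by 3.61. Housekeeping genes had 5 of 54 (9.26%) higher and 5 (9.26%) lower, with a median of 0.08. The genes of HP1 proteins and of H3K9 methylation had 5 of 16 (31.2%) higher and 1 (6.25%) lower, with a median of 0.20, and the starts of Cbx5, Cbx1, Setdb1 and Ehmt1 stood at log2 fold changes of 0.20, 0.18, -0.09 and 0.09, all uncalled. The start of Ehmt2 had 0.71 ± 0.11 (edgeR adjusted p = 1.71e-05), under the size threshold, and within 10 kb of a start the share of the group that was higher was 16.7%.

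**Figure D2:**
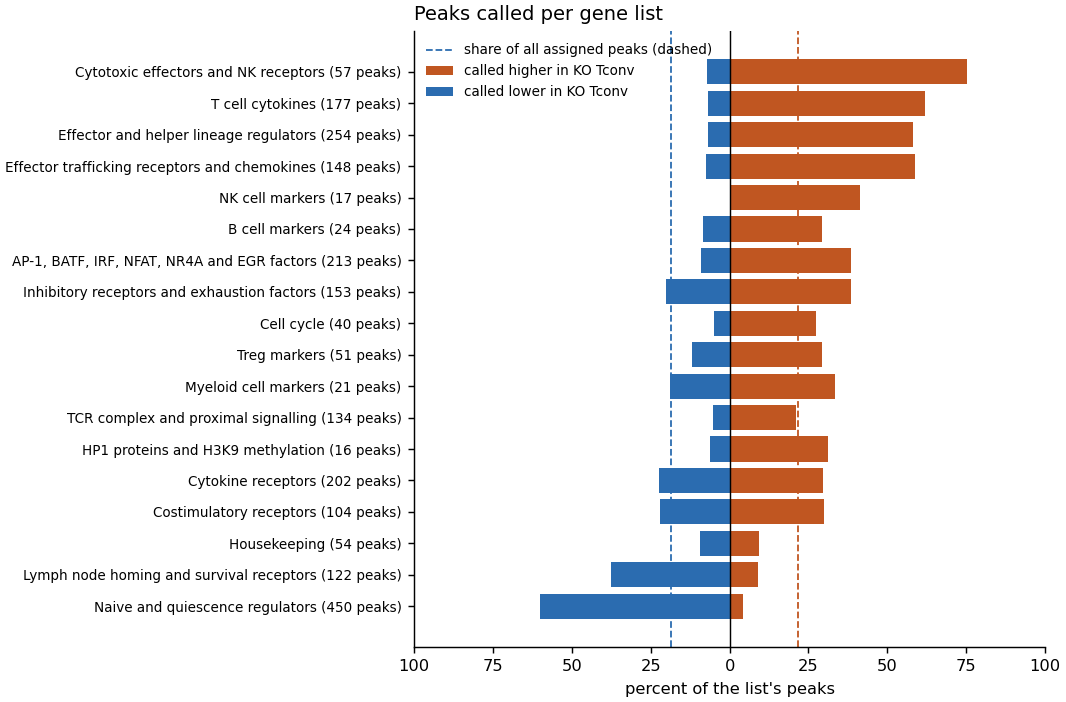
Share of the peaks of each gene group called higher (to the right) or lower (to the left) in KO Tconv than in naive KO cells, in percent of the group's peaks, with the number of peaks in parentheses. Cytotoxic, cytokine, trafficking and effector groups extend furthest to the right (75.4%, 62.1%, 58.8% and 58.3%) among T cell groups, and naive regulators to the left (60%). CD8 T cell markers (7 peaks, 85.7% lower) and erythroid markers (3 peaks) are not drawn.

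The other cell types that such samples could hold were checked by markers. The summed level of all 7 peaks of Cd8a and Cd8b1 fell from 37.7, 44.0 and 45.0 CPM in naive KO cells to 6.90, 9.23 and 6.79 CPM in KO Tconv, and 6 of the 7 were called lower. B cell markers summed to 65.4 to 71.7 CPM in naive and 71.9 to 86.2 CPM in Tconv libraries, with 7 of 24 peaks higher and 2 lower, and no peak at Ms4a1. Myeloid markers summed to 82.0 to 84.4 and 90.9 to 103 CPM, with 7 of 21 peaks higher and 4 lower, and no peak at Lyz2 or Csf1r. NK markers, with 7 of 17 peaks higher and none at Ncr1, summed to 358 to 401 and 378 to 434 CPM. Erythroid markers, with 1 of 3 peaks lower and none at Klf1 or Hba-a1, summed to 11.2 to 12.1 and 9.35 to 11.5 CPM. Their part in the results was not tested. Treg markers summed to 701 to 799 and 811 to 914 CPM, with 15 of 51 peaks (29.4%) higher and 6 (11.8%) lower, and the start of Foxp3, the defining Treg factor, went from 4.15, 4.94 and 4.72 CPM to 2.25, 2.97 and 2.85 CPM, a log2 fold change of -0.78 that missed the size threshold.

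Markers of the labelled states, some of them described above from the same contrast, are given as a description. Markers of naive cells (Ccr7, Lef1 and Tcf7) summed to 2226 to 2501 CPM in naive KO and 1138 to 1313 CPM in KO Tconv libraries, and markers of effector cells (Cd44, Tbx21, Cxcr3 and Ifng) to 348 to 363 and 999 to 1117 CPM. The genotype could not be read at the targeted gene, where the peak over the start of Cbx3 had a log2 fold change of 0.02 in both genotypes and 161 to 188 CPM in each of the 12 libraries, since that peak holds the promoter and the deletion need not remove it. The peak over the start of Cd4, at 600 to 702 CPM in the 6 KO libraries and 93.0 to 116 CPM in the 6 WT libraries, separated the genotypes. A Cd4-cre transgene carries Cd4 regulatory sequence of its own, and its part in this separation was not tested. The log2 fold change of the Cd4 peak between KO Tconv and naive KO cells was 0.00. Reads in peaks per library were 32.4 to 82.4 M in the 6 KO libraries and 54.3 to 90.3 M in the 6 WT libraries.

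The same contrast in WT cells called 33686 peaks (47.1%), of which 18031 (25.2%) were higher and 15655 (21.9%) lower in Tconv. Of the KO calls, 90.8% of the higher and 90.5% of the lower were also WT calls in the same direction, and of the WT calls 80.6% and 82.4% were KO calls. The 14535 peaks that opened in both genotypes had median log2 fold changes of 2.24 in KO and 2.79 in WT cells, and the 12900 that closed in both had medians of -1.90 and -2.21. The KO fold changes had an SD across peaks of 1.56 and the WT fold changes one of 1.96. The difference between genotypes, tested as an interaction of genotype and cell by edgeR, was called in 14 peaks (0.0196%) and had an unadjusted p under 0.05 in 8005. Gene by gene, the test of the difference missed the threshold in the 9 leading peaks plotted above, with adjusted p from 0.0517 for Cnn3 (-2.45 in KO and -3.36 in WT) to 0.998 for Hopx (4.62 in both).

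At Gzmk, Lilrb4a and Tbx21 larger differences also missed the threshold, while a Prdm1 peak described below passed it. The best Gzmk peak had log2 fold changes of 5.53 in KO and 7.54 in WT (difference -2.0, edgeR adjusted p = 0.0704), the start of Lilrb4a, an inhibitory receptor gene, 4.57 and 6.46 (difference -1.89, adjusted p = 0.0617), and the best Tbx21 peak 6.24 and 7.77 (difference -1.53, adjusted p = 0.179). For the receptors named by the study, the values in KO and WT were 1.34 and 1.13 at the Pdcd1 start, 1.54 and 1.28 at the Lag3 start, 1.03 and 0.92 at the Tigit start and 3.35 and 4.34 at the Havcr2 start. Of the 153 peaks of inhibitory receptors and exhaustion factors, 0 had a called difference. An unadjusted p under 0.05 for the difference by edgeR was found in 25 of them. The start of Tox had -1.06 and -1.22, and that of Foxp3 -0.78 and -1.26. The 151 genes that the study chose as more open and more expressed in KO than in WT Tconv of the arm with Treg, from libraries other than the 12 compared here, had 536 of 1209 peaks (44.3%) higher and 164 (13.6%) lower, with medians of 0.95 in KO and 0.82 in WT and 1 peak with a called difference. The study drew them from a cluster of expression patterns over its samples, so that change with activation may have entered the choice, and the list is no independent evidence of a direction.

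**Figure D3:**
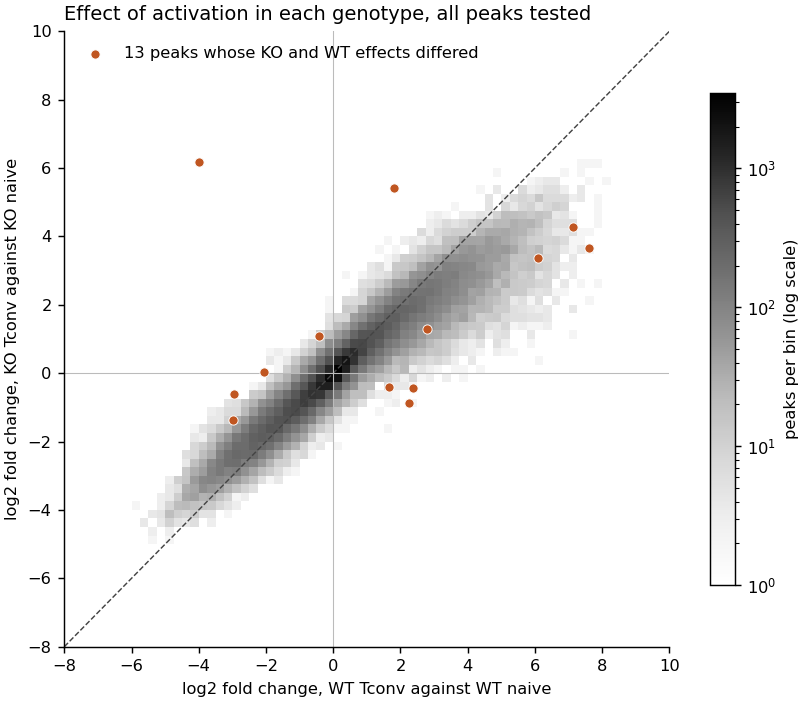
Log2 fold change of Tconv against naive cells in KO (vertical) and WT (horizontal) for 71508 peaks, as peaks per bin on a log grey scale, with the line of equal values dashed and 13 of the 14 peaks with a called difference as coloured points. Most peaks lie along the dashed line with KO values closer to 0 (SD of 1.56 against 1.96, or 1.83 in KO without naive KO libraries 1 and 2).

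Libraries 1 and 2 of naive KO stood apart from the rest, which touched this comparison of genotypes. In 5470 peaks that opened in the HP1α WT libraries, which were not otherwise used, the median level was -0.10, -0.23 and -1.03 log2 CPM in naive KO libraries 1, 2 and 3 and -1.02, -1.45 and -1.49 in the naive WT libraries. KO Tconv had 2.39, 2.47 and 2.48 and WT Tconv 2.45, 2.55 and 2.45. Naive KO libraries 1 and 2 thus had more signal at these sites, and they were also the shallowest of the naive libraries, with 33.9 and 32.4 M reads against 70.5 to 90.3 M in the other 4. Whether depth had a part in that signal was not tested. A fit with log2 depth as a covariate called 8 differences between genotypes. The median log2 fold change of these peaks was 2.88 in KO and 3.76 in WT, a median difference of -0.85. Without both libraries, a choice made after seeing the data, it was 3.45 in KO and the difference -0.32. That fit keeps naive KO library 3 alone, which is assumed to vary like the other groups. In 954 peaks that closed, naive KO libraries had 4.02 to 4.21 and KO Tconv 0.89, 1.15 and 0.42 log2 CPM, against 0.66, 0.28 and 0.39 in WT Tconv. Their median log2 fold change was -3.22 in KO and -3.67 in WT, with a median difference of 0.50 that was 0.45 without both libraries.

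With naive KO library 3 alone, 28476 peaks were called in KO, of which 89.9% of the higher and 90.7% of the lower were also WT calls, and 78% and 74.3% of the WT calls were KO calls. The peaks that opened in both genotypes then had medians of 2.83 in KO and in WT, and those that closed in both -2.02 and -2.26. The SD of the KO fold changes was 1.83. Peaks under 0.5 CPM in that library made up 8854 (56.6%) of those that opened. Among the gene groups, 77.2% of cytotoxic, 63.3% of cytokine, 58.8% of trafficking and 56.7% of effector regulator peaks were higher, and 54.7% of those of naive regulators lower.

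The count of called differences moved with single libraries. It was 2 without either naive KO library 1 or 2, 751 without naive KO library 3, 0 without WT Tconv library 2 (6162 at an unadjusted p under 0.05) and 261 without WT Tconv library 3. With naive KO library 3 alone edgeR called 0, with 3384 at an unadjusted p under 0.05, a fit with less power for which no other tool was run. The differences in the Cmklr1, Sulf2 and Prdm1 peaks described below were then -2.26, -2.22 and -1.80 on the log2 scale, against -3.94, -2.87 and -2.72, and the other 10 described moved by at most 0.16. DESeq2 called 1382 differences and limma with quality weights 1394 with all libraries.

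**Figure D4:**
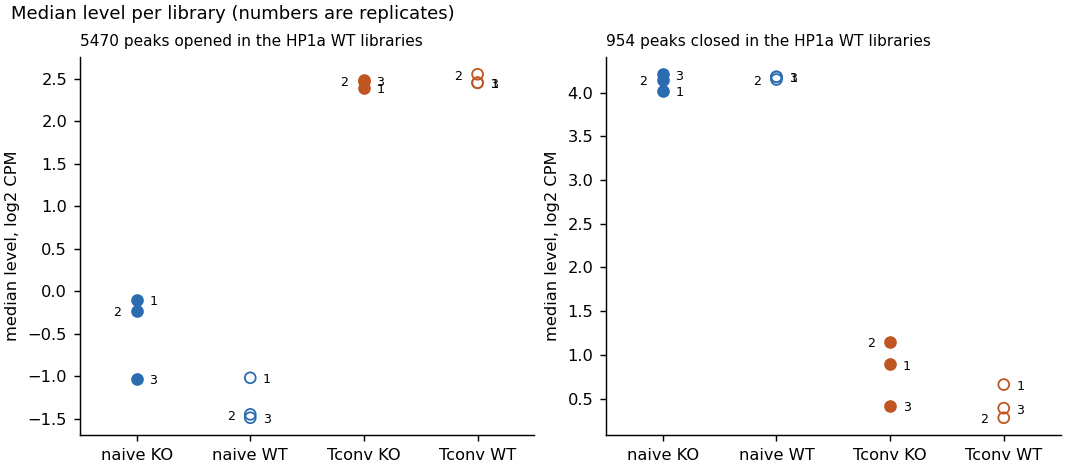
Median level, in log2 CPM, of peaks that opened (left) and closed (right) in HP1α WT libraries, 1 numbered point per HP1γ library. Naive KO libraries 1 and 2 lie at -0.10 and -0.23 in the opened peaks, above the other 4 naive libraries, which lie between -1.02 and -1.49.

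Of the 14 called differences, 7 were in each direction. That balance moved with the setting, with 6 higher and 1 lower by library size alone and 259 and 1123 by DESeq2. A peak 5.5 kb from the start of the zinc finger gene Zfp935, outside that gene, rose from 0.203, 0.189 and 0.189 CPM to 9.27, 6.69 and 8.99 CPM in KO and from 0.214, 0.270 and 0.210 CPM to 0.683, 0.598 and 1.19 CPM in WT. The log2 fold changes were 5.42 and 1.81. A peak 11.7 kb from the start of Zc3h12d, which encodes an RNase of the Regnase family, lay outside that gene and rose in KO from 4.3, 4.5 and 4.6 CPM to 9.77, 8.60 and 9.88 CPM, a log2 fold change of 1.08, and had -0.41 in WT. Intronic peaks of Sdk1 and Pdzrn3 fell in WT Tconv by 2.97 and 2.07 on the log2 scale and had -1.36 and 0.04 in KO. A peak over the start of the gene model Gm60673, whose nearest protein-coding start was that of Myt1l at 237 kb, fell by 2.96 in WT and had -0.62 in KO.

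In the same direction, a peak 61.4 kb from Gucy1a1 at chr3:82114601-82114910 held 0 reads in all 3 naive KO libraries, 5, 8 and 11 reads in KO Tconv, 114 to 247 reads in naive WT libraries and 10, 5 and 8 reads in WT Tconv. The Tconv groups overlapped, at means of 0.166 CPM in KO and 0.13 CPM in WT, and the naive groups did not. Against a floor of 3 reads over the naive KO group, it was at least 8.07-fold higher in KO Tconv, and its fitted difference of 10.17 is no bound.

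Differences of the other sign included 3 peaks close to each other near the Fc receptor-like genes Fcrla and Fcrlb, which are best known from B cells. The peak 22.4 kb from the Fcrla start, which lay outside that gene and 7193 bases from the start of the gene model Gm70986, had 5.66, 5.79 and 6.01 CPM in naive KO and 4.49, 2.40 and 2.55 CPM in KO Tconv, but 0.499, 0.392 and 0.662 CPM in naive WT and 2.89, 2.38 and 2.2 CPM in WT Tconv. The naive KO libraries were all above the naive WT libraries, and the Tconv groups overlapped. Fold changes were -0.88 and 2.26 on the log2 scale (difference -3.14, edgeR adjusted p = 0.0377), and the peaks 6.69 kb from the Fcrla start and near Fcrlb had differences of -2.81 and -2.06. A peak 47.6 kb from Resf1 rose in both genotypes, from 10.7, 12.1 and 9.68 to 27.1, 25.9 and 26.6 CPM in KO and from 2.31, 2.07 and 1.49 to 12.3, 15.1 and 13.2 CPM in WT.

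Peaks in Cmklr1 (chemerin receptor) and Sulf2 and a peak 106 kb from the start of Prdm1 opened in both genotypes and less in KO, by 3.67, 4.27 and 3.37 against 7.61, 7.14 and 6.10 on the log2 scale. In the Prdm1 peak naive KO libraries 1 and 2 had 0.668 and 0.629 CPM, library 3 had 0.251 CPM and the naive WT libraries had 0.0712 to 0.132 CPM. KO Tconv had 4.35 to 5.4 CPM and WT Tconv 6.48 to 6.79 CPM. The Cmklr1 peak had the same order of naive libraries, with 1.80, 0.944 and 0.289 CPM in KO and at most 0.228 CPM in WT. Its Tconv levels differed too, at 10.2 to 13.3 CPM in KO and 28.2 to 36.7 CPM in WT. The Sulf2 peak had 0.516 to 1.16 CPM in naive KO and 0.184 to 0.242 CPM in naive WT libraries. In Tconv it had 14.7 to 17.5 CPM in KO and 20.8 to 33.2 CPM in WT.

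The TCR β locus on chromosome 6 had a pattern by position. A T cell joins 1 V segment to a D and a J segment and deletes the DNA between them, and the sort on Vβ6 kept cells that use Trbv19. The peak over Trbv18 and Trbv19, at chr6:41150861-41156120, rose from 14.8, 16.9 and 15.9 CPM to 39.8, 41.8 and 46.1 CPM in KO, a log2 fold change of 1.42, and by 1.42 in WT. Of 14 peaks between Trbv19 and Trbd1, 10 fell and 0 rose in KO, with log2 fold changes from -2.97 to 0.99 and a median of -1.38. They summed to 58.7, 64.9 and 62.6 CPM in naive KO and 32.7, 21.0 and 29.7 CPM in KO Tconv. Of 29 peaks before Trbv19, 12 rose and 3 fell, with a median of 0.86, and of 5 from Trbd1 to Trbv31 none was called, with a median of -0.29. The WT medians of these stretches were 0.99, 1.42, -1.59 and -0.12 in order along the locus. Loss of DNA copies and closing of chromatin cannot be told apart in these peaks.

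**Figure D5:**
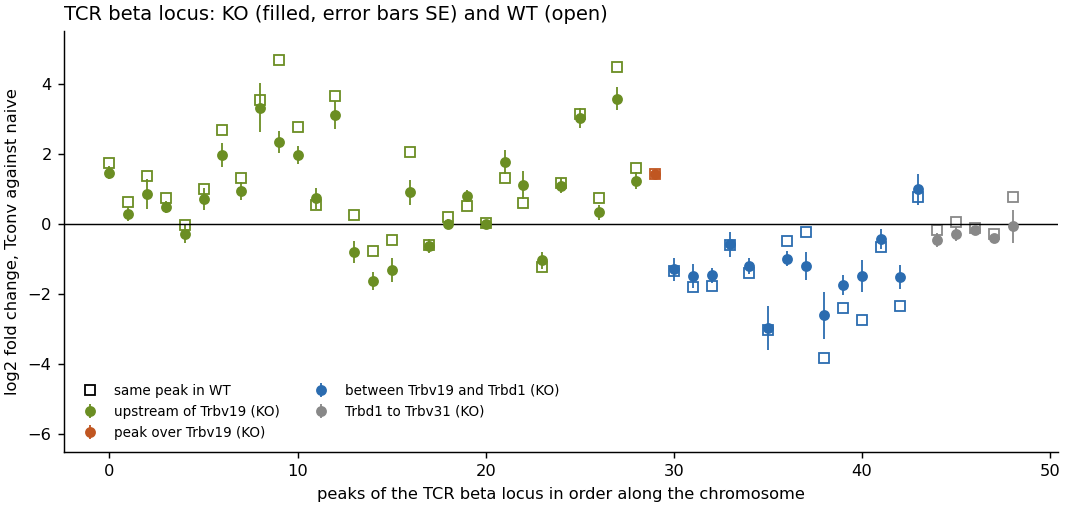
Log2 fold change of Tconv against naive cells for the 49 peaks of the TCR β locus in order along the chromosome, as filled points with bars of 1 SE for KO and open squares for WT, coloured by position relative to Trbv19 and Trbd1. The peak over Trbv19 lies at 1.42, and the 14 peaks after it up to Trbd1 lie between -2.97 and 0.99.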

How the data were processed

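The deposited table held whole-number counts of reads per consensus peak and was not normalized. By the study's account, the authors trimmed reads with Trim Galore 0.6.7 and aligned them to GRCm39 with BWA-MEM 2. They kept properly paired primary alignments of high mapping quality outside blacklisted regions and removed duplicates. They called peaks per library with HMMRATAC, merged them and counted with featureCounts 2.0.3, which can count 1 read in 2 adjacent peaks. Of 71512 intervals, 3 of no width were left out. All 36 columns matched a sample by title, and 0 were unused.

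Each peak was assigned to the nearest TSS of a coding or receptor gene in GENCODE vM39, for gene groups only within 100 kb, and a start was a peak within 1 kb of it. All 18 HP1γ libraries (6 groups of 3) were fitted together with edgeR 4.0.16 in R 4.3.3, with filterByExpr, TMM scaling, the two-sided quasi-likelihood F test and Benjamini-Hochberg adjustment over all peaks. The biological coefficient of variation was 22.2%. A call needed an adjusted p below 0.05 and a log2 fold change above 1 or below -1, the thresholds of the study. Scripts were tested on simulated data. No 2 libraries were identical. With 3 against 3, an exact permutation test cannot go below 0.1, so single peaks rest on the fit across all peaks.

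Named peaks were the 5 with the smallest p in each direction among those without overlap, 1 per gene, up to 3 genes per direction and list by their best peak, with starts, the genes named by the study, and all called differences. A few genes named for their counts were chosen after their values were seen. A few genes that these rules name are not reported here and were left out of the lists. Members, lists and tests were chosen with earlier results of these data known. Alternatives were other scalings, filters, tools (DESeq2 1.42.0 and limma 3.58.1), a replicate block, peak assignments, windows and leaving out libraries. Depth was 32.4 to 90.3 M reads in peaks for the 12 libraries compared.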

Additional observations from a re-analysis of the deposited data

Results flagged for a closer look

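All results listed here were peaks in which the change from naive cells to Tconv differed between KO and WT by the test of the difference itself (edgeR, adjusted p from 0.0118 to 0.0497). Differences are KO minus WT on the log2 scale. The KO change was the higher in peaks whose nearest protein-coding start was that of Gucy1a1 (10.17, with 0 reads in naive KO cells, so that the fitted size is no bound), Sdk1 (1.61), Zfp935 (3.61), Zc3h12d (1.48), Myt1l (2.34, at 237 kb) and Pdzrn3 (2.11). It was the lower in a peak 22.4 kb from the start of Fcrla (-3.14), one 6.69 kb from it (-2.81) and peaks whose nearest such start was that of Fcrlb (-2.06), Resf1 (-1.50), Cmklr1 (-3.94), Sulf2 (-2.87) and Prdm1 (-2.72, at 106 kb). Of 26 alternatives run for each, the call was kept in 22 for Gucy1a1, 16 for the Fcrla peak at 22.4 kb and 15 for Sdk1, and in 9 to 14 for the others. In the Cmklr1, Sulf2 and Prdm1 peaks naive KO libraries 1 and 2 were the highest of the naive libraries. With both left out, which leaves 1 naive KO library that is assumed to vary like the other groups, these differences were -2.26, -2.22 and -1.80 and the other 10 moved by at most 0.16. That fit called 0 differences by edgeR (3384 of all peaks had an unadjusted p under 0.05).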

How the results depend on the processing

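The KO count ranged from 27780 (without naive KO library 3) to 31426 (limma) against 30265, and the WT count from 32414 to 34886 against 33686. Leaving out 1 library at a time gave 27780 to 30493 for KO and 32414 to 34097 for WT, and each setting called between 88.6% and 100% of the KO peaks again. The replicate numbers did not pair the KO libraries (correlations of -0.21, 0.04 and 0.0032), and the replicate block gave 30270 KO, 33636 WT and 25 difference calls, or 86 with a GC correction. The count of 14 differences, with 7 in each direction, depended on the setting and the cause was not tested. It was 7 with library size alone (6 higher, 1 lower), 5 with DESeq2 size factors (4 and 1), 4 with TMM from peaks at start sites (3 and 1), 58 with loess offsets on abundance (15 and 43), 6 with those on GC (4 and 2), 8 with depth as a covariate, 146 with only the groups compared, 1382 by DESeq2 (259 and 1123) and 1394 by limma (385 and 1009). Leaving out 1 library at a time gave 0 to 751 differences, and 0 without naive KO libraries 1 and 2, a fit with 1 naive KO library whose spread is taken from the other groups. In those with 1 library left out, 751 came without naive KO library 3, 261 without WT Tconv library 3 and 0 without WT Tconv library 2 (6162 at an unadjusted p under 0.05). For the gene groups, the share of opened housekeeping peaks was 16.7% with the nearest gene of any kind, that of HP1 and H3K9 genes 16.7% within 10 kb, and that of NK markers 75.0% with the nearest gene of any kind. In 600-base windows AP-1 was held by 32.2% of opened and 21.0% of all windows, and TCF/LEF by 15.5% of closed and 10.3% of all. All 44 motif shares were higher in these windows, among opened peaks IRF at 21.6%, T-box at 17.7% and NFAT at 15.8%. Of 2496 KO values of named peaks under the alternatives, 2488 kept their direction and side of the threshold and 8 lost the call, at the Tigit and Il17a starts and a Cd14 peak. No value reversed.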
